A study of Mus musculus with 8 samples.

Results

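The genes described here encode the proteins of the cytosolic ribosome. They were taken as every row of the count table whose symbol is Rpl or Rps followed by a number, Rpsa, Rplp0, Rplp1 or Rplp2, without pseudogene rows (symbols with -ps) and Rps6k kinases, and with at least 10 counts over the 8 libraries. This gave 83 genes of 17570 with any count, 34 with symbols of the small subunit (Rps and Rpsa) and 49 with symbols of the large subunit (Rpl and Rplp). A further 4 symbols fell short of the minimum, namely Rpl18 with 0 counts, Rpl24 with 6, Rpl3l with 4 and Rpl6l with 6. The rule also takes Rps19bp1, which encodes a binding partner of Rps19, and Rpl7l1, a relative of Rpl7, neither of them a standard ribosomal protein, and it misses ribosomal proteins under other symbols, such as Fau and Rack1 (listed as Gnb2l1). The 17 pseudogene rows held 2610 counts, 0.157% of the 1666902 counts of the 83 genes.

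The RNA came from mouse CD4+ effector T cells of C57BL/6 background with a congenic marker, about 10000 sorted per library, taken 6 weeks after transfer into Rag1-/- hosts, which make no T or B cells but keep their other cells. All cells carried an LMPd retroviral hairpin, either shMdr1 against the transporter gene Abcb1a or the control shCD8, and the hosts were Asbt-/- or Asbt+/+ for the ileal bile acid transporter. Cells were isolated from small intestine or spleen, which gives 8 combinations with 1 library each, so that 4 libraries share each level of a factor. The hairpin comparison concerns a hairpin aimed at the transporter gene, whose RNA was still counted in every library. The host comparison concerns the bile acid uptake of the animal the cells lived in. Whether the libraries stem from separate animals is not stated in the labels, so p-values measure only the spread between libraries, which may be technical.

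Cells need the proteins of both ribosomal subunits in equal numbers, and their mRNAs are among the most abundant in growing and dividing cells, including activated T cells. Most of these mRNAs begin with a C followed by a run of pyrimidines, the 5′ terminal oligopyrimidine (TOP) motif. The motif lets mTORC1 and the RNA-binding protein LARP1 switch the translation of the whole group on and off together with growth signals, and several ribosomal proteins, such as Rpl5 and Rpl11, also act in p53 signalling when ribosome assembly fails.

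The sequence that carries the TOP motif lies at the transcription start, so the 30 bases around the start are shown for 8 genes whose values are described below. RefSeq promoters of GRCm38.p6 were found for 63 of the 83 genes, and a tract was counted where a C within 5 bases of the annotated start was followed by 4 or more bases that were all C or T, on the coding strand. Such a tract stood in 29 of the 63 genes (46.0%), in 5689 of 26962 other genes (21.1%) and in 18.3% of all 32851 promoters of the table. Annotated starts can miss the used start by a few bases, and the counts were made on another build (mm9). In the sequences below, written 5′ to 3′, capitals mark the tract.
Rps6, chr4:86857353-86857382, minus strand: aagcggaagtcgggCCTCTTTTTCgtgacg
Rps27, chr3:90213634-90213663, minus strand: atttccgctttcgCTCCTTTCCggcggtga
Rps27rt, chr9:114982725-114982754, minus strand: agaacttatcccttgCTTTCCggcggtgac
Rps27l, chr9:66946071-66946100, plus strand: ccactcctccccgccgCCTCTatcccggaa
Rps15a, chr7:118116133-118116162, minus strand: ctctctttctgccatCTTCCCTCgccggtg
Rpl22, chr4:152324421-152324450, plus strand: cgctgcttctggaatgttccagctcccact
Rpl22l1, chr3:28805493-28805522, plus strand: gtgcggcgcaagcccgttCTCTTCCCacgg
Rpl39, chrX:37085208-37085237, minus strand: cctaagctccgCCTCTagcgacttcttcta

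The longest run of bases shared by the windows of Rps27 and its single-exon copy Rps27rt was 14 bases, against 5 for Rps27 and Rps27l and 6 for Rpl22 and Rpl22l1. Rpl22 was the gene without a tract among the 8.

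The libraries held 1685225 to 2767105 counts. The labelled cell type was checked on 12 T cell markers, all detected in every library, with summed levels of 6034 to 10616 CPM (counts scaled with TMM to a common library size) in small intestine and 6732 to 7816 CPM in spleen. Abcb1a had fewer counts with shMdr1 than with shCD8 in 3 of 4 pairs, while in small intestine of Asbt+/+ hosts the library labelled shMdr1 had 23 counts (14.8 CPM) and the library labelled shCD8 had 21 (8.28 CPM). Hairpin differences below are drawn with these labels, and in that pair Abcb1a goes against them. Libraries stood apart in 3 ways. Only 8456 genes were detected in shCD8 small intestine Asbt+/+, against 11345 to 13184 in the other 7. The mitochondrially encoded share of counts was 26.8% in shMdr1 spleen Asbt-/-, 17.6% in its shCD8 partner and 18.3% in shMdr1 small intestine Asbt+/+, against 6.63 to 8.62% in the other 5. Hemoglobin transcripts took 3.69% of counts in shMdr1 spleen Asbt-/- and at most 0.554% elsewhere, and 7 erythroid markers summed to 41578 CPM there and to at most 5116 CPM elsewhere.

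Ribosomal protein genes took between 5.96% and 11.8% of all counts in a library. In small intestine the share was 10.4% with shMdr1 and 11.8% with shCD8 in Asbt-/- hosts, and 7.64% with shMdr1 and 9.89% with shCD8 in Asbt+/+ hosts. In spleen it was 5.96% with shMdr1 and 8.80% with shCD8 in Asbt-/- hosts, and 9.27% with shMdr1 and 10.7% with shCD8 in Asbt+/+ hosts. The share was lower with shMdr1 in 4 of 4 pairs of one tissue and host, and the 95% Wilson intervals, which cover counting error only, spanned less than the difference in each pair (5.93 to 6.00% against 8.76 to 8.84% in spleen of Asbt-/- hosts, for example). Means were 8.31 ± 1.93% with shMdr1 and 10.3 ± 1.28% with shCD8 (SD, n = 4 libraries each). The ranges of the hairpins overlapped across tissues and hosts.

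The mitochondrial share averaged 15.1 ± 9.32% with shMdr1 and 9.81 ± 5.19% with shCD8. It was lower with shMdr1 in spleen of Asbt+/+ hosts (6.63% against 7.33%) and higher with shMdr1 in each other pair. Of the counts left after mitochondrial, hemoglobin and Rn18s transcripts were removed, ribosomal protein genes took 9.96 ± 1.08% with shMdr1 and 11.5 ± 0.965% with shCD8. This remaining share was still lower with shMdr1 in each pair. In small intestine it was 11.4% against 12.8% (Asbt-/-) and 9.54% against 10.7% (Asbt+/+). In spleen it was 8.88% against 10.9% (Asbt-/-) and 9.998% against 11.7% (Asbt+/+). For the share of all counts, the difference between hairpins was -1.21 percentage points without the shMdr1 spleen Asbt-/- library, against -1.996 with all 8 libraries. Between tissues the share averaged 9.93 ± 1.74% in small intestine and 8.69 ± 1.99% in spleen, and between hosts 9.24 ± 2.51% in Asbt-/- and 9.38 ± 1.30% in Asbt+/+ hosts (SD, n = 4 libraries each), differences below those spreads. In these bulk samples, fewer cells of a type and less RNA per cell cannot be told apart.

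**Figure D1:**
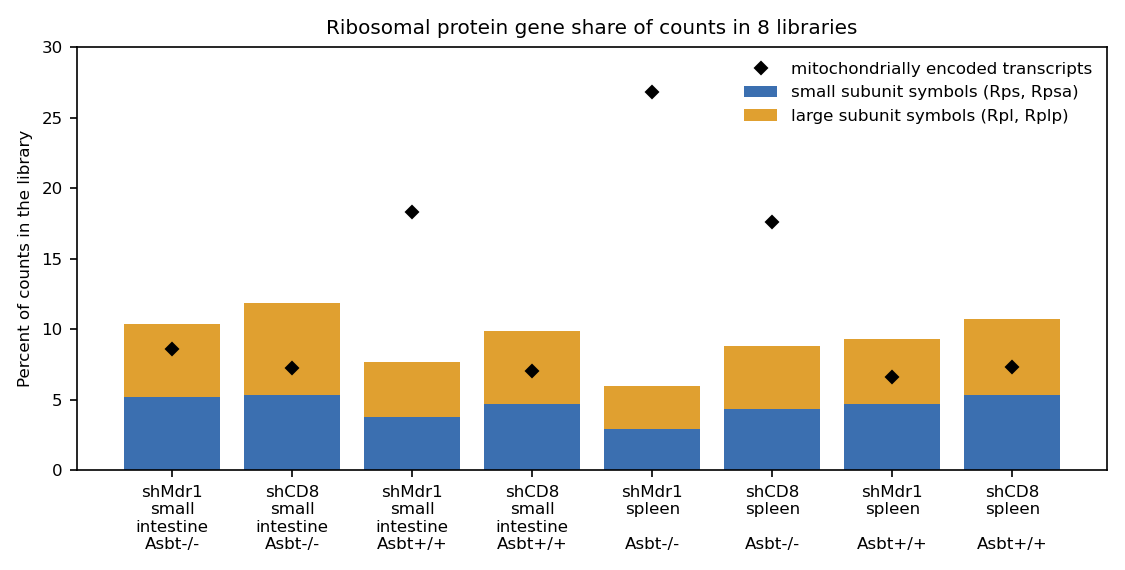
Percent of counts in each of the 8 libraries that fell on small subunit genes (lower bar) and large subunit genes (upper bar), with the percent on mitochondrially encoded transcripts as diamonds. The stacked bars run from 5.96% in shMdr1 spleen Asbt-/- to 11.8% in shCD8 small intestine Asbt-/-, and the lowest bar stands under the highest diamond (26.8%).

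Both subunits contributed nearly equally. The large subunit genes had 0.981 to 1.05 times the counts of the small subunit genes in 6 libraries, and 1.21 times in shCD8 small intestine Asbt-/- and 1.12 times in shCD8 small intestine Asbt+/+. Compared per kilobase of coding sequence, as mean CPM over the 8 libraries, the highest value was 23334.5, for Rpl41, the shortest ribosomal protein. Its coding sequence of 75 bases lies in a transcript of 582, so reads counted on untranslated parts raise this value. Without scaling to length its mean was 1750 CPM, below the 3819 CPM of Rps27. Rpl41 was followed by Rps27 with 15153 and the stalk protein gene Rplp1 with 8897 CPM per kilobase, then by Rpl32 with 7110 and Rps14 with 7025. The lowest were the paralogs and related genes Rpl10l with 9.98, Rpl7l1 with 39.8, Rpl39l close to it and Rps19bp1 with 92.0 CPM per kilobase. Among the standard ribosomal proteins that reached the minimum count, Rpl23a with 118 and Rpl13a with 145 CPM per kilobase were the lowest. Rpl18 with 0 counts and Rpl24 with 6 fell short of that minimum. Rpl23a and Rpl13a each have a pseudogene row, with 15 counts beside 990 for Rpl23a and 301 beside 1562 for Rpl13a. Whether the counting split reads between gene and pseudogene was not tested.

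Before scaling to length, the 5 genes with the highest mean CPM included Rps27, Rps14, Rplp1 and Rpl32. Rps14, part of the small subunit platform, ranged over 2366 to 3871 CPM. Rpl32 ranged over 2084 to 4317 CPM. Both were lowest in shMdr1 spleen Asbt-/-, the library with the highest mitochondrial share.

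Between cells of the small intestine and cells of the spleen, no ribosomal protein gene passed the threshold. Most fitted changes were above 0, but the difference was seen in Asbt-/- hosts and not in the pairs of Asbt+/+ hosts, whose medians lay near 0. The call rule was an adjusted p under 0.05 in edgeR's quasi-likelihood test with Benjamini-Hochberg adjustment over 10000 tested genes, in a fit with tissue, hairpin and host as terms. It called 0 of the 83 genes for tissue, against 0.62% of all tested genes, and 0 of the 83 had an unadjusted p under 0.05, against 8.45% of all. DESeq2 and limma-voom also called 0, against 2.62% of genes with an adjusted p in DESeq2 and 0.73% of all in limma-voom. They had 3 and 2 genes at an unadjusted p under 0.05 (3.61% and 2.41%, against 13.4% and 12.1% of all). The fitted log2 fold change was above 0 for 75 of 83 genes with a median of 0.26, against a median of -0.17 over all tested genes and 0.14 over the 1355 genes with a mean of 100 CPM or more, of which 63.5% were above 0. The median was 0.21 for small subunit genes and 0.30 for large subunit genes.

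Among genes with a mean of at least 10 CPM, the range within which the extremes are named here and below, the highest fitted tissue changes were those of Rpl22, Rps15a, Rps12 and Rpl37. Rpl22 is required for the development of αβ T cells in mice. Rpl22 in small intestine had 1113 CPM with shMdr1 and 1539.9 CPM with shCD8 in Asbt-/- hosts, and 849 CPM with shMdr1 and 1092 CPM with shCD8 in Asbt+/+ hosts. In spleen the gene had 513 CPM with shMdr1 and 767 CPM with shCD8 in Asbt-/- hosts, and 780.0 CPM with shMdr1 and 1009.9 CPM with shCD8 in Asbt+/+ hosts. Its 4 small intestine libraries lay mostly above those of spleen, but the shMdr1 small intestine Asbt+/+ library lay within the spleen range, and the log2 fold change was 0.59 ± 0.27 (SE; edgeR adjusted p = 0.604).

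Rps15a is a small subunit protein. In small intestine Rps15a had 2394 CPM with shMdr1 and 2935 CPM with shCD8 in Asbt-/- hosts, and 1689 CPM with shMdr1 and 2098 CPM with shCD8 in Asbt+/+ hosts. The spleen libraries had 982 CPM with shMdr1 and 1635 CPM with shCD8 in Asbt-/- hosts, and 1651 CPM with shMdr1 and 1929 CPM with shCD8 in Asbt+/+ hosts. The groups overlapped through the Asbt+/+ hosts, and the log2 fold change was 0.56 ± 0.30 (edgeR adjusted p = 0.668). For Rps12 the log2 fold change was 0.50 ± 0.28 and for Rpl37 0.48 ± 0.29, with edgeR adjusted p-values of 0.705 and 0.728. Both were highest in shCD8 small intestine Asbt-/-, at 1948 CPM for Rps12 and 3164 CPM for Rpl37.

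At the other end were Rps19bp1, Rps27l, Rpl7l1 and Rpl23a, with fitted log2 fold changes of -1.55 ± 0.98, -0.55 ± 0.41, -0.47 ± 0.70 and -0.10 ± 0.46 (SE). Rpl23a lies at the exit of the ribosomal tunnel, where the signal recognition particle docks. Rpl23a in small intestine had 95.5 CPM with shMdr1 and 23.5 CPM with shCD8 in Asbt-/- hosts, and 41.1 CPM with shMdr1 and 56.0 CPM with shCD8 in Asbt+/+ hosts. In spleen there were 46.2 CPM with shMdr1 and 63.7 CPM with shCD8 in Asbt-/- hosts, and 48.3 CPM with shMdr1 and 68.8 CPM with shCD8 in Asbt+/+ hosts. Small intestine held both the highest and the lowest Rpl23a library. Without both small intestine Asbt+/+ libraries, the tissue changes of Rps19bp1, Rpl7l1 and Rpl23a were 0.15, 0.002 and 0.002.

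Library by library, the tissue difference was not even. The median log2 difference of the 83 genes was 0.77 with shMdr1 and 0.30 with shCD8 in Asbt-/- hosts, and -0.04 with shMdr1 and -0.03 with shCD8 in Asbt+/+ hosts, where 47 and 44 of the 83 genes were lower in small intestine. Over other genes at 100 CPM or more, the median was 0.43 with shMdr1 and 0.07 with shCD8 in Asbt-/- hosts. In Asbt+/+ hosts it was 0.05 with shMdr1 and 0.08 with shCD8. Of the 76 genes with a mean of 100 CPM or more, 8 were higher in small intestine in 4 of 4 pairs (10.5%, against 19.2% of all 1355 genes at that level) and 0 were lower in all 4 (against 5.46%). Rpl22, Rpl27a, Rpl34, Rpl38, Rpl7a and Rps15a were among those 8. No gene had all 4 libraries of one tissue above all 4 of the other, where 3.39% of tested genes were higher in small intestine and 4.68% lower in this way.

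The tissues also differed in marker genes of other cell types. Of 8 tested neutrophil markers 6 fell in small intestine (edgeR adjusted p = 0.000611 to 0.0359), with a summed level over 10 markers of 10.7 to 193 CPM in small intestine, where Retnlg was at 0 in all 4 libraries, and 869 to 7731 CPM in spleen. Of 6 tested erythroid markers 3 fell (edgeR adjusted p = 0.00295 to 0.00793), and the sum over 7 markers was 38.3 to 105 CPM in small intestine, where Slc4a1 was at 0 in every library, and 1096 to 41578 CPM in spleen. Of 11 tested macrophage and dendritic cell markers Cd74 and H2-Aa rose (edgeR adjusted p = 0.0198 and 0.0355), with sums over 12 markers of 597 to 1274 CPM in small intestine and 183 to 523 CPM in spleen. Of 11 tested epithelial markers Tff2 and Defa24 rose (edgeR adjusted p = 0.0198 and 0.0341), with sums over 13 markers of 53.5 to 902 CPM in small intestine and 21.5 to 207 CPM in spleen, where Tff2 and Defa24 were at 0 in all 4 libraries. The part of these cells in the ribosomal protein levels was not tested.

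**Figure D2:**
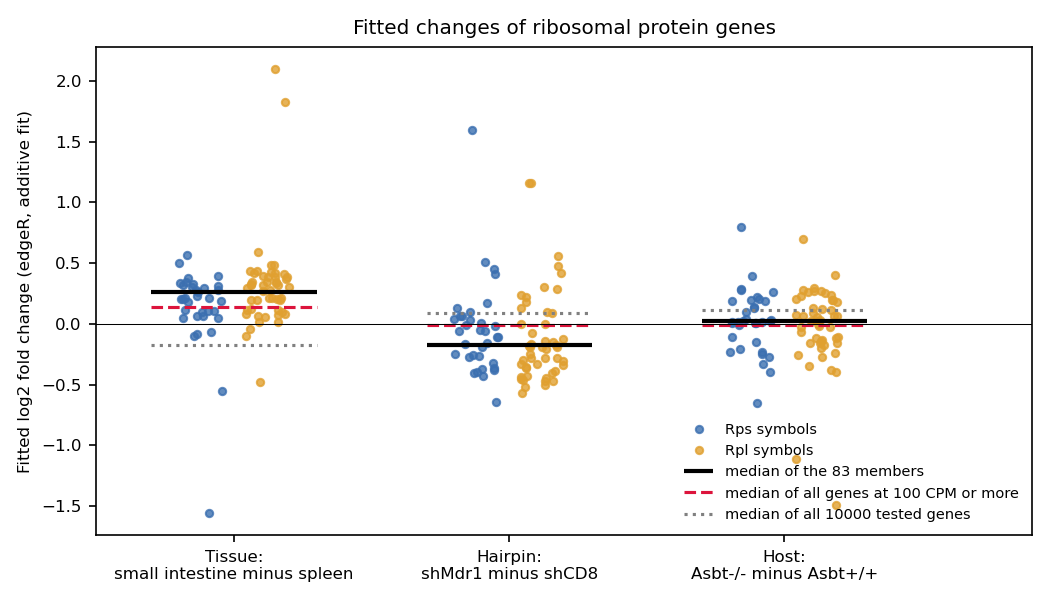
Fitted log2 fold changes of the 83 genes (1 point per gene, Rps symbols in blue and Rpl symbols in orange) for tissue, hairpin and host, with the median of the 83 genes (solid line), of the 1355 genes at 100 CPM or more (dashed) and of all tested genes (dotted). The solid line lies at 0.26 for tissue, -0.18 for hairpin and 0.03 for host, and none of the points passed the edgeR threshold.

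With shMdr1, most ribosomal protein genes lay slightly below shCD8, and none passed the threshold. The edgeR test called 0 of the 83 genes and 0% of all tested genes, with 0 of the 83 at an unadjusted p under 0.05, against 2.99% of all. DESeq2 and limma-voom called 0 as well, against 0.03% and 0% of all. They had 4 and 2 of the 83 at an unadjusted p under 0.05 (4.82% and 2.41%, against 5.22% and 4.12% of all). The fitted log2 fold change was below 0 for 57 genes with a median of -0.18, against 0.09 over all tested genes and -0.01 over genes at 100 CPM or more. Of the 76 genes at that level, 25 were lower with shMdr1 in 4 of 4 pairs (32.9%, against 15.9% of all 1355 genes) and 2, Rpl10 and Rps3, were higher in 4 of 4 (2.63%, against 8.04%).

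Markers of other cell types also differed in level between hairpins, with 0 called by edgeR. The fitted change was above 0 with shMdr1 for 8 of 8 tested neutrophil markers (median 1.16, 1 at an unadjusted p under 0.05) and for 6 of 6 tested erythroid markers (median 1.30, 0 at an unadjusted p under 0.05). The 10 neutrophil markers summed to 10.7 to 7731 CPM with shMdr1, where Elane was at 0 in all 4 libraries, and to 41.1 to 6825 CPM with shCD8. Both minima came from small intestine of Asbt-/- hosts, where this sum was thus lower with shMdr1. In each other pair it was higher. The 7 erythroid markers summed to 43.2 to 41578 CPM with shMdr1 and to 38.3 to 5116 CPM with shCD8. This sum was higher with shMdr1 in both Asbt-/- pairs, at 41578 against 1096 CPM in spleen and 43.2 against 38.3 CPM in small intestine. It was lower with shMdr1 in both Asbt+/+ pairs, at 2148 against 5116 CPM in spleen and 88.6 against 105 CPM in small intestine. The part of cells with these markers in the ribosomal protein levels was not tested.

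The 4 lowest fitted hairpin changes included those of Rpl35, Rpl35a and Rpl39. Rpl39 sits in the wall of the exit tunnel. With shMdr1, Rpl39 had 773 and 558 CPM in small intestine of Asbt-/- and Asbt+/+ hosts and 382 and 599 CPM in spleen of Asbt-/- and Asbt+/+ hosts. With shCD8 it had 1276 and 639 CPM in small intestine of Asbt-/- and Asbt+/+ hosts and 610.5 and 773 CPM in spleen of Asbt-/- and Asbt+/+ hosts. Each shMdr1 library lay below its shCD8 partner, yet the ranges overlapped, and the log2 fold change was -0.50 ± 0.30. Rpl35, another tunnel exit protein, and Rpl35a had log2 fold changes of -0.57 ± 0.28 and -0.52 ± 0.29 (SE). The edgeR adjusted p-values of Rpl39, Rpl35 and Rpl35a were each 0.999.

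Rps19bp1, Rpl7l1, Rpl29 and Rps3 had the highest fitted hairpin changes. Rps3, which lines the mRNA entry of the small subunit and also acts in DNA repair, was higher with shMdr1 in every pair. With shMdr1, Rps3 had 3196 and 2250.4 CPM in small intestine of Asbt-/- and Asbt+/+ hosts and 1626 and 1959 CPM in spleen of Asbt-/- and Asbt+/+ hosts. With shCD8 it had 1572 and 1739.9 CPM in small intestine of Asbt-/- and Asbt+/+ hosts and 1193 and 1756 CPM in spleen of Asbt-/- and Asbt+/+ hosts. The ranges overlapped, and the log2 fold change was 0.51 ± 0.28 (edgeR adjusted p = 0.999). Rpl10, which joins the large subunit in its last maturation step, had 0.42 ± 0.27, and Rpl29 0.56 ± 0.33 (SE).

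The hairpin groups were fully apart for 1 gene in each direction, shares near or below those of all tested genes. Rpl7l1 was higher in every shMdr1 library, as were 1.45% of tested genes, and the small subunit gene Rps18 was lower in every shMdr1 library, as were 1.34%. With shMdr1, Rps18 had 988 and 769.6 CPM in small intestine of Asbt-/- and Asbt+/+ hosts and 711 and 852 CPM in spleen of Asbt-/- and Asbt+/+ hosts. With shCD8 it had 1133 and 1042 CPM in small intestine of Asbt-/- and Asbt+/+ hosts and 1043 and 1178 CPM in spleen of Asbt-/- and Asbt+/+ hosts. The log2 fold change of Rps18 was -0.41 ± 0.24 (edgeR adjusted p = 0.999), and the highest shMdr1 library stood at 988 CPM against 1042 CPM in the lowest shCD8 library.

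The pairs of one tissue and host, which have no replicate, differed from each other. In spleen of Asbt-/- hosts 20 of the 76 genes were 1.5-fold or more lower with shMdr1 and 0 were higher by that much, against 16.6% and 9.74% of genes at 100 CPM or more. In spleen of Asbt+/+ hosts 0 were lower and 0 higher, against 5.68% and 5.54%. In small intestine of Asbt+/+ hosts 5 were lower and 1 higher, against 17.4% and 20.7%. In small intestine of Asbt-/- hosts 10 were lower and 24 higher, against 15.4% and 27.7%. In the last pair the shares of ribosomal protein genes, 13.2% lower and 31.6% higher, were thus near those of all genes at that level.

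Between Asbt-/- and Asbt+/+ hosts there was no common shift. The edgeR test called 0 of the 83 genes and 0% of all tested genes, and 0 of the 83 had an unadjusted p under 0.05 (against 2.71% of all). DESeq2 and limma-voom called 0, against 0.06% and 0% of all. They had 0 and 1 of the 83 at an unadjusted p under 0.05 (0 and 1.2%, against 5.66% and 4.40% of all). The log2 fold change was above 0 for 50 genes with a median of 0.03, against 0.11 over all tested genes and -0.01 at 100 CPM or more. The lowest fitted changes were those of Rps27l, Rpl17, Rps6 and Rpl5, at -0.65 ± 0.41, -0.39 ± 0.29, -0.39 ± 0.32 and -0.38 ± 0.23 (SE). The highest were those of Rps19bp1, Rpl7l1, Rpl36 and Rps27rt, at 0.80 ± 0.90, 0.70 ± 0.70, 0.40 ± 0.31 and 0.39 ± 0.36. Most of these changes moved with single libraries. When 1 library was left out at a time, the change ranged from -1.26 to -0.31 for Rps27l, -0.67 to -0.19 for Rpl17 and -0.78 to -0.14 for Rps6. These 3 were lowest without shMdr1 small intestine Asbt-/- and nearest 0 without shCD8 small intestine Asbt-/-. Rpl5 kept to -0.48 to -0.30. The highest 4 ranged from 0.04 to 1.95 for Rps19bp1, 0.12 to 1.28 for Rpl7l1, 0.12 to 0.58 for Rpl36 and 0.06 to 0.57 for Rps27rt, each nearest 0 without shCD8 small intestine Asbt+/+.

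Rpl5, which with Rpl11 and 5S rRNA binds Mdm2, was the 1 gene whose hosts were fully apart. In Asbt-/- hosts Rpl5 had 590.0 and 546 CPM in small intestine with shMdr1 and shCD8 and 393 and 548 CPM in spleen with shMdr1 and shCD8. In Asbt+/+ hosts it had 617 and 797 CPM in small intestine with shMdr1 and shCD8 and 633 and 644 CPM in spleen with shMdr1 and shCD8. All Asbt-/- libraries lay below all Asbt+/+ libraries (edgeR adjusted p = 0.996), as did those of 0.93% of tested genes, while 0 of the 83 genes were higher in all Asbt-/- libraries, against 1.78% of tested genes. Over matched pairs, Rpl5 was also the 1 gene of 76 that was lower in Asbt-/- hosts in 4 of 4 (1.32%, against 6.27% of genes at 100 CPM or more), and 0 were higher in 4 of 4 (against 6.57%). Its partner Rpl11 had a log2 fold change of -0.18 ± 0.29 (SE).

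Rps6, the small subunit protein phosphorylated downstream of mTORC1, was far less even in Asbt-/- than in Asbt+/+ hosts. In Asbt-/- hosts Rps6 had 1185 and 371 CPM in small intestine with shMdr1 and shCD8 and 536 and 541 CPM in spleen with shMdr1 and shCD8. In Asbt+/+ hosts it had 845 and 865 CPM in small intestine with shMdr1 and shCD8 and 777 and 784 CPM in spleen with shMdr1 and shCD8. The Asbt+/+ libraries spanned 777 to 865 CPM, whereas the Asbt-/- libraries held both the highest value, in shMdr1 small intestine, and the lowest, in shCD8 small intestine.

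The median host difference had opposite signs in the tissues. In the fit with separate effects per tissue, the median log2 fold change of Asbt-/- against Asbt+/+ hosts was 0.26 in small intestine, with 54 of 83 genes above 0, and -0.26 in spleen, with 76 below 0. Over all tested genes these medians were 0.36 in small intestine and -0.03 in spleen, and over genes at 100 CPM or more 0.03 and -0.13, so that in small intestine the 83 genes lay below the median of all tested genes and above that of abundant genes. The difference of the effects had a median of 0.54 over the 83 genes, 0.46 over all tested genes and 0.10 at 100 CPM or more. The edgeR test of that difference called 0 of the 83 genes and 0% of all tested genes, with 7 of the 83 at an unadjusted p under 0.05 (8.43%, against 4.31% of all). DESeq2 and limma-voom called 0, against 0.384% of genes with an adjusted p in DESeq2 and 0% of all in limma-voom. They had 6 and 19 of the 83 at an unadjusted p under 0.05 (7.23% and 22.9%, against 7.10% and 6.27% of all).

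Markers of other cell types moved with the host, with 0 called by edgeR. Of 11 tested epithelial markers 0 were above 0 in Asbt-/- hosts, with a median of -4.70 within small intestine (7 at an unadjusted p under 0.05) and -5.15 within spleen (4 at an unadjusted p under 0.05). The 13 epithelial markers summed to 90.7 and 53.5 CPM with shMdr1 and shCD8 in small intestine of Asbt-/- hosts, where Epcam, Krt8 and Vil1 were at 0 in both libraries, against 902 and 323 CPM in Asbt+/+ hosts. In spleen they summed to 41.9 and 21.5 CPM with shMdr1 and shCD8 in Asbt-/- hosts, against 207 and 61.9 CPM in Asbt+/+ hosts. Within spleen 0 of 8 tested neutrophil markers were above 0 in Asbt-/- hosts (3 at an unadjusted p under 0.05), and the 10 markers summed to 3059 and 869 CPM with shMdr1 and shCD8 in Asbt-/- hosts, against 7731 and 6825 CPM in Asbt+/+ hosts. Other lists rose in part. Of 11 tested macrophage and dendritic cell markers 10 were above 0 in Asbt-/- hosts within small intestine (median 0.64) and 2 within spleen (median -1.09). In each tissue 2 of them had an unadjusted edgeR p under 0.05. Within spleen 5 of 6 tested erythroid markers were above 0 (median 1.09, 0 at an unadjusted p under 0.05). Their sums were 41578 and 1096 CPM with shMdr1 and shCD8 in Asbt-/- hosts, against 2148 and 5116 CPM in Asbt+/+ hosts. The part of these cells in the host differences was not tested.

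Within small intestine the host effect called 0 of the 83 genes in edgeR and 0% of all tested genes, with 7 of the 83 at an unadjusted p under 0.05, a share of 8.43% that is near the 7.43% of all tested genes. DESeq2 and limma-voom called 0, against 0.806% of genes with an adjusted p in DESeq2 and 0% of all in limma-voom. They had 7 and 20 at an unadjusted p under 0.05 (8.43% and 24.1%, against 14.8% and 11.2% of all). Both small acidic stalk genes were among the 7 of edgeR, Rplp1 at 0.88 ± 0.33 and Rplp2 at 0.77 ± 0.32 (SE, with an edgeR adjusted p of 0.624 for each). In small intestine Rplp1 had 3474 CPM with shMdr1 and 5196 CPM with shCD8 in Asbt-/- hosts, and 2146 CPM with shMdr1 and 2490.4 CPM with shCD8 in Asbt+/+ hosts. In spleen it had 2016 CPM with shMdr1 and 2975 CPM with shCD8 in Asbt-/- hosts, and 2666 CPM with shMdr1 and 3379.7 CPM with shCD8 in Asbt+/+ hosts. In small intestine both Asbt-/- libraries of Rplp1 lay above both Asbt+/+ libraries, while in spleen both lay below their Asbt+/+ partner of the same hairpin. Within spleen the host effect called 0 of the 83 genes and 0% of all tested genes in edgeR, with 0 of the 83 at an unadjusted p under 0.05, against 1.02% of all. DESeq2 and limma-voom called 0, against 0.975% of genes with an adjusted p in DESeq2 and 0% of all in limma-voom. They had 0 at an unadjusted p under 0.05 (against 1.07% and 1.33% of all).

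The hairpin effect within small intestine called 0 of the 83 genes and 0% of all tested genes in edgeR, with 2 of the 83 at an unadjusted p under 0.05 (2.41%, against 4.81% of all). These were Rpl10 at 0.82 ± 0.34 and Rps19bp1 at 3.65 ± 0.88 (SE; edgeR adjusted p = 0.785 for each). DESeq2 called 1, Rps19bp1 (adjusted p = 0.0306), as it did 26 of the 6898 genes to which it gave an adjusted p (0.377%), with 3 of the 83 at an unadjusted p under 0.05 (3.61%, against 12.8% of all), and limma-voom called 0, with 3 (against 6.67% of all). In counts, Rps19bp1 had 221 with shMdr1 and 36 with shCD8 in Asbt-/- hosts, and 36 with shMdr1 and 1 with shCD8 in Asbt+/+ hosts, the last in the library with the fewest detected genes.

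Within spleen the hairpin effect called 0 of the 83 genes and 0% of all tested genes in edgeR, with 1 of the 83 at an unadjusted p under 0.05 (1.2%, against 0.62% of all). DESeq2 and limma-voom called 0, against 0.03% and 0% of all, with 1 each at an unadjusted p under 0.05 (against 0.80% and 0.84% of all). The median was -0.29 and 70 of 83 genes were below 0, against a median of -0.08 over genes at 100 CPM or more. The hairpin effect in small intestine minus that in spleen called 0 of the 83 and 0% of all tested genes in edgeR, with 1 at an unadjusted p under 0.05 (against 1.7% of all). Its median of 0.27 was close to the 0.25 of all tested genes and the 0.17 of genes at 100 CPM or more. The hairpin effect in Asbt-/- hosts minus that in Asbt+/+ hosts called 0 of the 83 and 0% of all tested genes, with 1 at an unadjusted p under 0.05 (against 1.19% of all), and had a median of 0.04, against -0.22 over all tested genes and -0.002 at 100 CPM or more. For both of these differences DESeq2 and limma-voom called 0 of the 83, with 1 each at an unadjusted p under 0.05. Between tissues they called 0.01% and 0% of all tested genes, with 3.89% and 2.22% at an unadjusted p under 0.05. Between hosts they called 0% and 0.03% of all, with 2.99% and 3.2% at an unadjusted p under 0.05.

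The shCD8 small intestine Asbt-/- library held the highest value of 35 ribosomal protein genes and the lowest of 19. There the SD of its log2 deviation from the mean of the other 7 libraries was 0.73 over the 83 genes, with a median of 0.26, while the SD over other genes at 100 CPM or more was 0.91. In shCD8 small intestine Asbt+/+ the SD was larger, 0.82 over the 83 genes with a median of 0.13, and 0.84 over other genes at that level. The 83 genes include some below 100 CPM, so these SDs do not compare like sets. In shCD8 small intestine Asbt+/+ they include Rps19bp1 with 1 count, Rpl7l1 with 4 and Rpl10l with 63. The spread of the abundant ribosomal protein genes alone was not compared. On the high side, Rpl37 had 3164 CPM in shCD8 small intestine Asbt-/- and 1033 to 1747 CPM elsewhere. Rpl36, Rpl41 and Rps27 had 2809, 3077 and 6016 CPM there, the highest of each. On the low side, Rps27l had 186 CPM there and 627 to 1354 CPM elsewhere, and Rpl29, Rpl15, Rps6 and Rpl14 had 132, 123, 371 and 696 CPM there, the lowest of each.

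The shMdr1 spleen Asbt-/- library, which also stood apart by its mitochondrial and hemoglobin shares, held the lowest value of 50 genes, with a median log2 deviation from the other 7 of -0.53 and an SD of 0.43. The shMdr1 small intestine Asbt-/- library held the highest value of 30 genes, with a median of 0.34 and an SD of 0.33. In the 4 remaining libraries the median lay between -0.12 and 0.13 and the SD between 0.28 and 0.44.

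**Figure D3:**
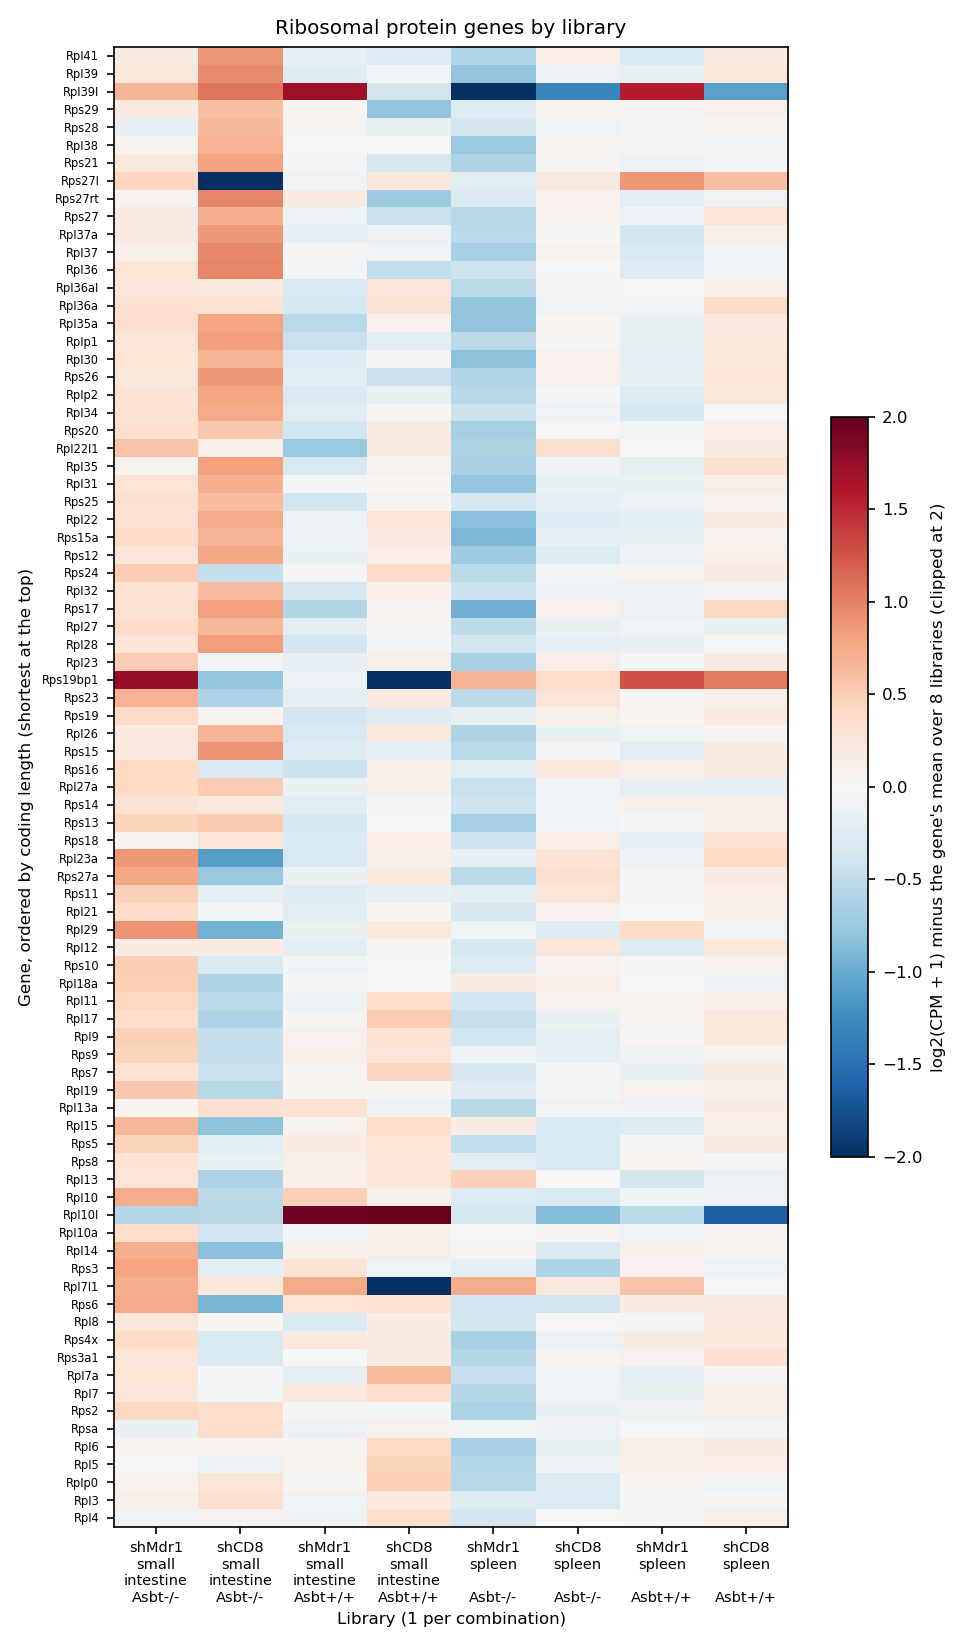
Each row is 1 of the 83 genes, ordered by coding length with the shortest at the top, and each column 1 library; the colour is log2(CPM + 1) minus the gene's mean over the 8 libraries, clipped at 2. In the shCD8 small intestine Asbt-/- column most short genes are red and most genes of middle length blue, while in the shMdr1 spleen Asbt-/- column 50 genes have their lowest value.

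The deviations in shCD8 small intestine Asbt-/- were ordered by the length of the coding sequence, a property the choice of genes did not use. Coding lengths were those of the principal GENCODE vM21 transcript, and the values are a description across genes, which share the libraries and are not independent replicates; the length limits were chosen after the values were seen. Over the 76 genes at 100 CPM or more, the Spearman correlation of coding length with the deviation of the shCD8 small intestine Asbt-/- library from the other 7 was -0.62, and over 1204 other genes at that level it was 0.20. For the shCD8 small intestine Asbt+/+ library these values were 0.56 and -0.06, for shMdr1 small intestine Asbt+/+ 0.46 and 0.02, and for shMdr1 spleen Asbt-/- 0.41 and 0.18. In the 4 remaining libraries the correlation over the 76 genes lay between -0.36 and 0.38, and over the 1204 other genes between -0.35 and 0.13. An order by length was thus also seen among other genes. In shMdr1 small intestine Asbt-/- it was -0.35 over those and 0.18 over the 76.

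In the hairpin pairs, which contain these libraries, the Spearman correlation of coding length with the shMdr1 minus shCD8 difference over the 76 genes was 0.58 for small intestine and 0.53 for spleen in Asbt-/- hosts, and -0.08 for small intestine and 0.35 for spleen in Asbt+/+ hosts. Over the 1204 other genes it was -0.29, 0.12, 0.08 and -0.04 in the same pairs. The order by length was thus not seen in small intestine of Asbt+/+ hosts. In small intestine of Asbt-/- hosts, 30 of the 39 genes with coding sequences under 450 bases were lower with shMdr1, with a median log2 difference of -0.46, and 30 of the 37 genes with longer coding sequences were higher, with a median of 0.70. The longest genes did not follow this order: 22 of 25 genes from 450 to under 750 bases were higher with a median of 0.92, and the 12 genes of 750 bases or more had a median of 0.09. In spleen of Asbt-/- hosts, 39 of 39 short genes were lower with shMdr1, with a median of -0.56, and the 37 longer genes had a median of -0.33. In small intestine of Asbt+/+ hosts the medians were -0.27 for short and -0.21 for longer genes, and in spleen of Asbt+/+ hosts -0.21 and -0.11.

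**Figure D4:**
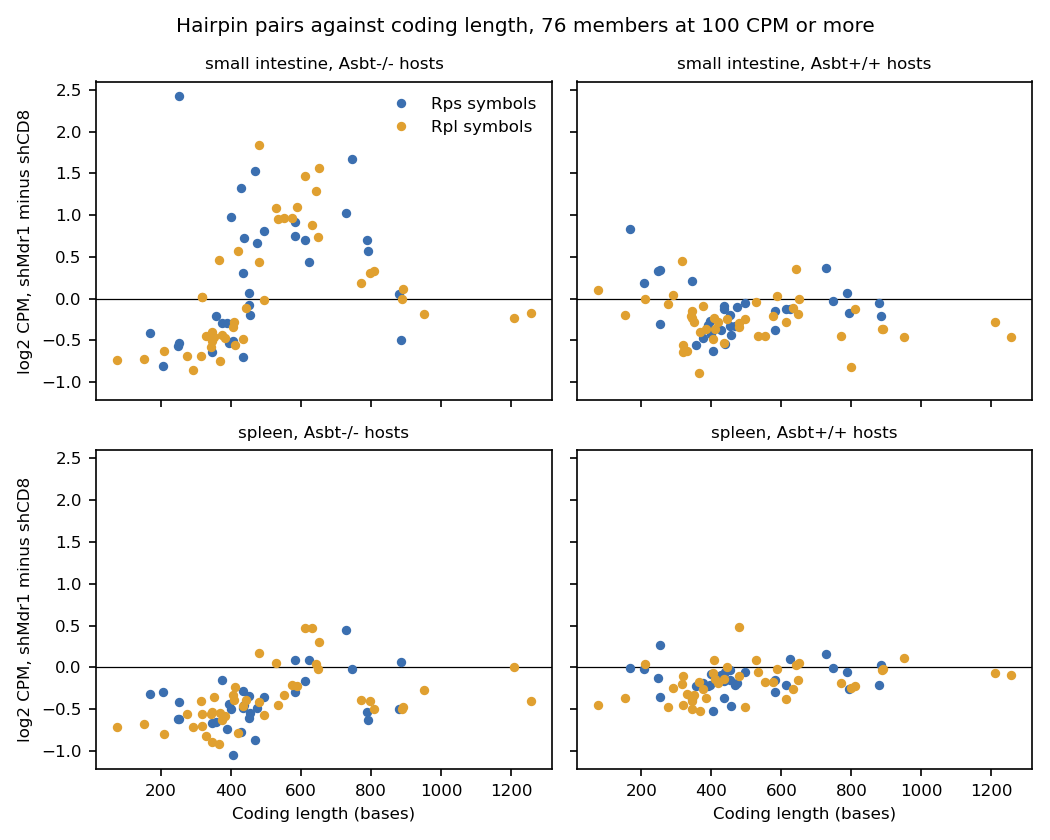
Log2 CPM of shMdr1 minus shCD8 against coding length in bases for the 76 genes at 100 CPM or more, with 1 panel for each tissue and host and 1 library per hairpin. In small intestine of Asbt-/- hosts the short genes lie mostly below 0 (30 of 39) and the genes from 450 to under 750 bases mostly above (22 of 25), and in spleen of Asbt-/- hosts all 39 short genes lie below 0.

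Several ribosomal proteins have a paralog that can take their place in the ribosome, and for most of these pairs the parent dominated. Rps27l, a p53 target in human and mouse cells, had 20.5 to 39.5% of the CPM of Rps27 in 7 libraries and 3.09% in shCD8 small intestine Asbt-/-. Rps27l in small intestine had 1002 CPM with shMdr1 and 186 CPM with shCD8 in Asbt-/- hosts, and 705 CPM with shMdr1 and 874 CPM with shCD8 in Asbt+/+ hosts. In spleen the gene had 627 CPM with shMdr1 and 838 CPM with shCD8 in Asbt-/- hosts, and 1354 CPM with shMdr1 and 1128 CPM with shCD8 in Asbt+/+ hosts. Both coding sequences have 252 bases, so that this pair parted although its lengths are the same. The fitted log2 fold changes of Rps27l and Rps27 were 0.45 ± 0.42 and -0.32 ± 0.34 for hairpin (SE; edgeR adjusted p = 0.999 for each).

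Rpl22l1 had 19.5 to 45.3% of the CPM of Rpl22, from which it differs little in length. In small intestine Rpl22l1 had 413 CPM with shMdr1 and 300.5 CPM with shCD8 in Asbt-/- hosts, and 166 CPM with shMdr1 and 307 CPM with shCD8 in Asbt+/+ hosts. The spleen libraries had 183 CPM with shMdr1 and 347 CPM with shCD8 in Asbt-/- hosts, and 279.7 CPM with shMdr1 and 316 CPM with shCD8 in Asbt+/+ hosts. The share was lowest in shCD8 small intestine Asbt-/- and shMdr1 small intestine Asbt+/+ (19.5% in each) and highest in shCD8 spleen Asbt-/-. Its log2 fold changes were 0.07 ± 0.31 for tissue, -0.30 ± 0.30 for hairpin and 0.23 ± 0.31 for host (SE), within about 1 SE of 0 in each.

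Rpl36al, a retrogene copy of the X-linked Rpl36a, was as abundant as its parent, with 95.2 to 138% of its CPM. Rpl36a ranged over 347 to 781 CPM and Rpl36al over 479 to 828 CPM, both lowest in shMdr1 spleen Asbt-/-. The fitted hairpin changes of the 2 genes were close, at -0.40 ± 0.28 for Rpl36a and -0.28 ± 0.25 for Rpl36al. Rps27rt, the single-exon copy of Rps27, had 2.31% of the CPM of Rps27 or less in each library, and since the 2 sequences are close, its counts may be reads of Rps27.

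**Figure D5:**
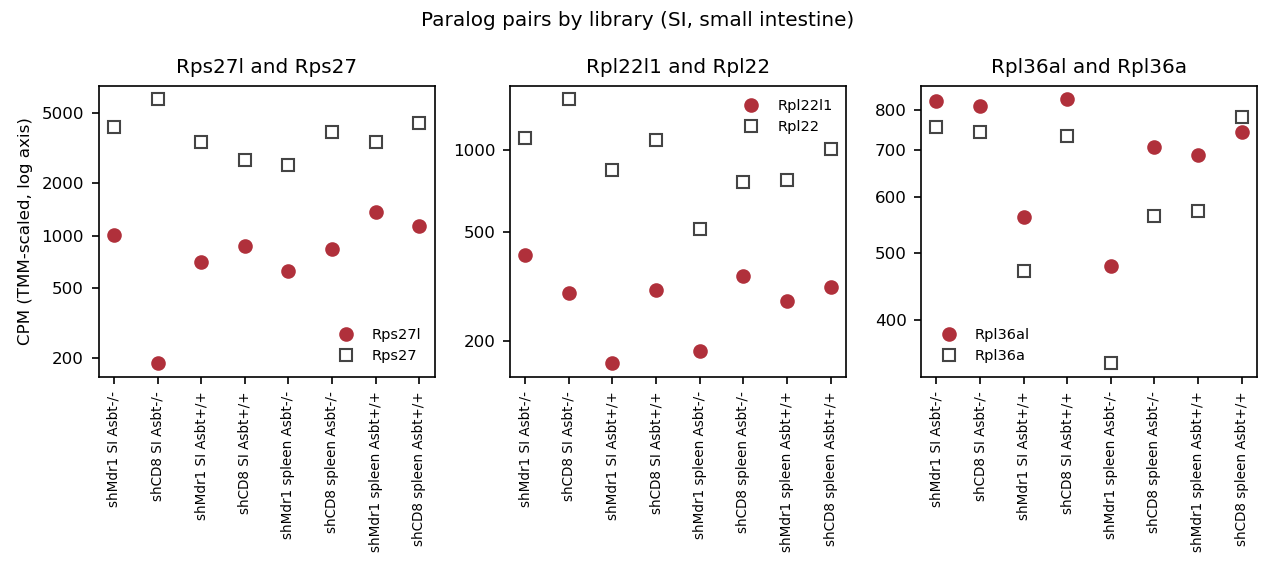
CPM on a log axis in the 8 libraries for the paralogs Rps27l, Rpl22l1 and Rpl36al (filled circles) and their parents Rps27, Rpl22 and Rpl36a (open squares); SI is small intestine. Rps27l is at 186 CPM in the shCD8 SI Asbt-/- library, where Rps27 is at its highest, and Rpl36al lies above Rpl36a in 7 of 8 libraries.

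The paralogs known from mouse testis were near the detection limit. Rpl39l had 17 counts in shMdr1 and 23 in shCD8 small intestine of Asbt-/- hosts, 23 in shMdr1 and 7 in shCD8 small intestine of Asbt+/+ hosts, 0 in shMdr1 and 2 in shCD8 spleen of Asbt-/- hosts, and 32 in shMdr1 and 3 in shCD8 spleen of Asbt+/+ hosts. These counts amount to 0 to 2.65% of the CPM of Rpl39. Rpl10l had 25 counts in shMdr1 and 63 in shCD8 small intestine of Asbt+/+ hosts and 1 to 5 counts in the other 6 libraries. Its highest CPM were thus in both small intestine Asbt+/+ libraries, at 1.79% and 3.54% of the CPM of Rpl10, and reads of Rpl10 could be split between them.

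Rps19bp1 and Rpl7l1 had the largest SD of log2 CPM among the genes with a mean of 10 CPM or more, 1.92 and 1.36. Rps19bp1 in small intestine had 87.6 CPM with shMdr1 and 14.4 CPM with shCD8 in Asbt-/- hosts, and 23.1 CPM with shMdr1 and 0.394 CPM with shCD8 in Asbt+/+ hosts. In spleen there were 41.2 CPM with shMdr1 and 33.0 CPM with shCD8 in Asbt-/- hosts, and 62.9 CPM with shMdr1 and 53.3 CPM with shCD8 in Asbt+/+ hosts. In small intestine Rpl7l1 had 39.2 CPM with shMdr1 and 27.9 CPM with shCD8 in Asbt-/- hosts, and 40.4 CPM with shMdr1 and 1.58 CPM with shCD8 in Asbt+/+ hosts. In spleen it had 40.0 CPM with shMdr1 and 27.3 CPM with shCD8 in Asbt-/- hosts, and 35.4 CPM with shMdr1 and 23.2 CPM with shCD8 in Asbt+/+ hosts. In both genes the shCD8 small intestine Asbt+/+ library was far below the rest, with 1 count of Rps19bp1 and 4 of Rpl7l1, and Rpl7l1 lay between 23.2 and 40.4 CPM in the other 7.

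Among the proteins of the stalk, which recruits the elongation factors, the anchor Rplp0 was highest in another library than its small partners. Rplp0 in small intestine had 1645 CPM with shMdr1 and 1862 CPM with shCD8 in Asbt-/- hosts, and 1577 CPM with shMdr1 and 2170.2 CPM with shCD8 in Asbt+/+ hosts. In spleen the gene had 1065 CPM with shMdr1 and 1284 CPM with shCD8 in Asbt-/- hosts, and 1623 CPM with shMdr1 and 1506 CPM with shCD8 in Asbt+/+ hosts. It was highest in shCD8 small intestine Asbt+/+. Rplp1 and Rplp2 lay at 5196 and 3917 CPM in shCD8 small intestine Asbt-/-, against 2490.4 and 2025 CPM in shCD8 small intestine Asbt+/+. Rplp0 has a coding sequence of 951 bases, Rplp1 of 342 and Rplp2 of 345. Over the 76 genes, deviations in both libraries went with coding length (Spearman -0.62 and 0.56, in the same order), so this difference is not particular to the stalk. The log2 fold changes for host were -0.26 ± 0.25 for Rplp0, 0.29 ± 0.33 for Rplp1 and 0.25 ± 0.31 for Rplp2 (SE), none past the threshold.

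Genes with known roles outside the ribosome gave no common direction. Rpl11 ranged over 751 to 1457 CPM and Rps19, whose human gene is mutated in Diamond-Blackfan anaemia, over 1784 to 3023 CPM. Rpl13a, a translational repressor in interferon-treated human myeloid cells, ranged over 59.1 to 109.7 CPM, Rpsa, also known as the laminin receptor precursor, over 1514 to 2135 CPM, and Rps27a, translated as a fusion with ubiquitin, over 701 to 2031 CPM. The hairpin log2 fold changes were 0.00 ± 0.30 for Rpl11, -0.05 ± 0.28 for Rps19, -0.16 ± 0.28 for Rpl13a, -0.16 ± 0.25 for Rpsa and 0.03 ± 0.37 for Rps27a (SE). Rpsa had the smallest SD of log2 CPM over the 8 libraries of all 83 genes, 0.16, and in spleen its 4 libraries spanned 1531 to 1660 CPM.

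Of the remaining genes of the fixed selection, Rps4x, the X-linked copy of the gene, ranged over 659.9 to 1348 CPM, Rpl3, which reaches the peptidyl transferase centre, over 597 to 907 CPM, and Rpl7 over 600.1 to 1124 CPM. Their tissue log2 fold changes were 0.21 ± 0.27, 0.28 ± 0.23 and 0.34 ± 0.24 (SE). Rpl41 ranged over 1117 to 3077 CPM and had a hairpin log2 fold change of -0.47 ± 0.30.

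As a group, ribosomal protein genes varied slightly less than other abundant genes. The median SD of log2 CPM over the 8 libraries was 0.38 for the 76 genes at 100 CPM or more, against 0.46 for the 1279 other genes at that level. It was 0.97 over all tested genes, which include those at lower levels. The 76 and the 1279 genes were not matched on level, so a part of level in this difference was not tested. Over the 2850 pairs of these 76 genes, the median Pearson correlation of log2 CPM across the 8 libraries was 0.48 and the median Spearman correlation 0.45, and 21.5% of pairs had a Pearson value below 0. These values are a description, since all pairs share the same libraries and their depth.

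Genes that work with ribosomal proteins did not pass the tests either, in lists chosen with earlier results of these data known. None of 3 ribosomal protein genes with other symbols, 18 elongation and other TOP mRNA genes, 49 ribosome biogenesis factors, 32 initiation factors, 18 genes of mTORC1, LARP1 and related regulators, 9 p53 targets and 75 mitochondrial ribosomal protein genes was called by edgeR for tissue, hairpin or host. Unadjusted p-values under 0.05 were found for 0, 0, 2, 4, 2, 2 and 2 of them for tissue, for 0, 3, 1, 0, 1, 3 and 6 for hairpin and for 0, 1, 0, 1, 0, 0 and 2 for host, in the same order of lists. The shares of all tested genes under that value were 8.45% for tissue, 2.99% for hairpin and 2.71% for host. The median tissue change was 0.24 for the 3 genes with other symbols and 0.21 for the elongation and TOP genes, of which 17 of 18 lay above 0, beside 0.26 for the 83 genes. It was -0.45 for biogenesis factors and -0.17 for mitochondrial ribosomal protein genes, beside -0.17 for all tested genes. For hairpin the medians were -0.12 for elongation and TOP genes, 0.31 for biogenesis factors and 0.34 for mitochondrial ribosomal protein genes, beside -0.18 for the 83 genes. Fau, which encodes the small subunit protein fused to a ubiquitin-like domain, had 1272 CPM in shMdr1 and 1939 CPM in shCD8 cells from small intestine of Asbt-/- hosts, and 761 to 1152 CPM in the other 6 libraries.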

How the data were processed

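The authors deposited raw counts of reads per gene for each library, without normalization. Per the labels' protocols, cDNA was made with a SMART-Seq v4 kit and libraries with NEBNext Ultra II, without molecular identifiers. The submitters' processing notes name TopHat, HTSeq, DESeq2 and the build mm9. Neither their versions nor the use of strand is known here, so counts of near-identical copies and overlapping genes are uncertain. The hairpin was read from the sample titles, because another label names the Mdr1 hairpin for all libraries.

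Genes were filtered with filterByExpr (10000 genes, 99.5% of counts), scaled with TMM and fitted with edgeR 4.0.16 (R 4.3.3) in the quasi-likelihood model, with tissue, hairpin and host as terms (4 residual degrees of freedom), with separate effects per tissue (2) or with a hairpin by host term (3). P-values were adjusted over all tested genes. SEs were derived as |log2 fold change| over the root of the F statistic. Log2 CPM of pairs used a prior count of 2. The code was tested on simulated data.

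Alternatives were DESeq2 1.42.0 (size factors, Wald test), limma-voom (limma 3.58.1), no filter, no covariates, a block for matched pairs, and libraries or transcript classes left out. Genes were named if called, among the 4 highest and 4 lowest fitted changes per factor at a mean of 10 CPM or more, among the 5 highest and 5 lowest mean CPM, at 0 in a library, or in a fixed selection of paralogs and genes with known roles; any other was chosen after its values were seen. The genes, lists and rules were chosen with earlier results of these data known. Some genes that these rules name are not reported here.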

Additional observations from a re-analysis of the deposited data

Results flagged for a closer look

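Of 54 groups of 4 libraries looked at, 3 held 1 library far from its neighbours, where chance gives about 1 in 20. Rpl37 had 3164 CPM in shCD8 small intestine Asbt-/-, against 1524 to 1747 CPM in the other small intestine libraries. Rpl35a had 1327 CPM in the same library, against 792 to 879 CPM in the other shCD8 libraries. Rpl5 had 797 CPM in shCD8 small intestine Asbt+/+, against 617 to 644 CPM in the other Asbt+/+ libraries.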

How the results depend on the processing

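Of 680 recomputed values of single genes, 642 kept their direction and side of the threshold, 31 changed sign and 7 passed the threshold. The DESeq2 Wald test called 1 gene for hairpin within small intestine (Rps19bp1, adjusted p = 0.0306), and edgeR and limma-voom called 0. Without both small intestine Asbt+/+ libraries, 29 genes were apart between tissues (2 libraries against 4; 34.9%, against 24.4% of all tested genes) and 3 between hosts (3.61%, against 12.1%), and 2 were apart between hosts with DESeq2 size factors (2.41%, against 2.72%). In that setting the fitted tissue change was 0.151 for Rps19bp1, 0.002 for Rpl7l1 and 0.002 for Rpl23a, and the host change was -0.071 for Rpl36, -0.659 for Rps19bp1, -0.191 for Rpl22l1, -0.311 for Rps27 and -0.497 for Rpl39. Without covariates the host change of Rpl22 was 0.076. The cause of these shifts was not tested.

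Leaving out 1 library at a time, genes called ranged from 0 to 1 for hairpin by host, 0 to 8 for hairpin by tissue, 0 to 11 for hairpin within small intestine, 0 to 23 for host by tissue and 0 to 27 for host within small intestine. At the highest of these counts, the members called were 1.2%, 9.64%, 13.3%, 27.7% and 32.5%, against 7.69%, 5.33% (5.23% in the other fit with 8), 8.47%, 32.9% and 41.4% of all tested genes, in the same order. Without any 1 small intestine library the residual spread comes from spleen alone, and the lone library is assumed to vary like those. Genes apart ranged from 2 to 17 for hairpin and 1 to 11 for host, both highest without shMdr1 small intestine Asbt-/- (20.5% and 13.3%, against 5.87% and 5.96% of all tested genes), and from 0 to 11 for tissue, highest without shMdr1 small intestine Asbt+/+ (13.3%, against 13.5%). Over the 8 fits 5.17 to 5.93% of all tested genes were apart for hairpin, 4.69 to 5.96% for host and 10.4 to 14.6% for tissue. The share difference between hairpins ranged from -2.683 to -1.213 points. Ranges that crossed 0 were, for host, -0.179 to 0.131 for Rpl22, -0.124 to 0.438 for Rpl22l1, -0.351 to 0.064 for Rpl36a, -0.172 to 0.109 for Rpl36al, -0.127 to 0.339 for Rpl39 and -0.093 to 0.406 for Rps27. For tissue they were -0.305 to 0.255 for Rpl22l1, -0.701 to 0.249 for Rpl23a, -1.081 to 0.085 for Rpl7l1 and -0.049 to 0.453 for Rps27, and for hairpin -0.043 to 0.719 for Rps27l. The median over the 83 genes ranged from 0.115 to 0.336 for tissue, -0.294 to -0.077 for hairpin and -0.124 to 0.166 for host. A block for matched library pairs called 0 genes for tissue.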
